A study of Saccharomyces cerevisiae with 180 samples.

Results

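The 10 genes HXK2, PGI1, PFK1, PFK2, FBA1, TPI1, PGK1, CDC19, PDC1 and ADH1 encode enzymes of glycolysis and alcoholic fermentation in the budding yeast Saccharomyces cerevisiae. They were taken from a list of strongly transcribed glycolytic genes, and every nucleosome centred in the open reading frame (ORF) or up to 500 bp upstream of the start codon was used. Together they held 104 of the 66360 nucleosomes of the study's atlas, of which 99 carried read counts, against 65032 in the whole genome. Glycolysis converts glucose to pyruvate, and in glucose medium yeast ferments the pyruvate to ethanol, so these genes are known as some of the most heavily transcribed of the cell; transcription itself was not measured here. Transcribed genes carry histone H3 marks in a characteristic order: trimethylation of lysine 4 (K4me3, by Set1) and acetylation of lysine 18 (K18ac) near the start, and trimethylation of lysine 36 (K36me3, by Set2) and of lysine 79 (K79me3, by Dot1) further into the body. Eaf3 is a chromodomain protein of the Rpd3S deacetylase, which binds methylated lysine 36.

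The study applied combinatorial indexed chromatin immunoprecipitation: nucleosomes released by micrococcal nuclease from formaldehyde-fixed cells grown in rich glucose medium (YPD) were precipitated with a first antibody and then with a second one, or were kept as Input of that second step. A first set of 120 libraries covered 4 strains, WT H3 and strains whose H3 carried arginine in place of lysine (H3K4R, H3K18R and H3K36R), with antibodies to H3, K4me3, K18ac, K36me3 and K79me3. A second set of 60 libraries covered strains labelled bar1 (titled as wild type), set2 and eaf3, with the 4 mark antibodies and no H3. Every strain and antibody combination was sequenced as 1 library, so no difference below has a replicate check and none was tested. Intervals are 95% and cover counting error only.

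Libraries held 150 to 2693698 reads with a median of 110476.5, and 32 held fewer than 10000. In the second set, SET2 had 0.0356 times the mean density of reads in the set2 strain and EAF3 had 0.0625 times in the eaf3 strain. The strain labelled bar1 went against its label: BAR1 stood at 0.905 times the mean, whereas NAM7 held 6 reads over 17 nucleosomes, against 1796 in set2 and 4095 in eaf3. It is called the strain labelled bar1 throughout. The K79me3 libraries with Input of the second set stood apart. Across 4941 genes with at least 4 counted nucleosomes, their rank correlation with K79me3 in WT H3 was 0.31 in the strain labelled bar1 (10044 reads), 0.11 in set2 (715681 reads) and 0.12 in eaf3 (108930 reads), against 0.87 to 0.93 in the substitution strains. The set2 one correlated at 0.48 with K18ac of WT H3. These correlations are descriptions over genes, which are not replicates. The K4me3 library of H3K4R (3639 reads), the K18ac library of H3K18R (37544) and the K36me3 library of set2 (24149), where the mark's residue or enzyme was missing, were too shallow for single genes.

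Upstream of the start codon the glycolytic genes had few nucleosomes in the atlas. None was placed within 500 bp upstream of HXK2, the main hexokinase of glucose-grown cells (YGL253W, chromosome VII, 23935 to 25395, sacCer3), or of PGK1, 3-phosphoglycerate kinase (YCR012W, chromosome III, 137746 to 138996). Only 0.816% of 6002 genes had none there. PGI1, PFK1, FBA1, TPI1, CDC19 and PDC1 had 1 each, and PFK2 and ADH1 had 2, so that 8 of the 10 genes had at most 1, against 9.88% of all genes and an all-gene median of 2. The single upstream nucleosomes were centred at -3 bp for PGI1, -113 for PDC1, -158 for CDC19, -170 for TPI1, -213 for PFK1 and -436 for FBA1. No upstream nucleosome of the 10 genes lay inside another ORF. Of the 10 upstream nucleosomes, 5 had no counts (those of FBA1, TPI1, CDC19 and PDC1 and 1 of PFK2), against 4.93% of upstream nucleosomes over all genes. Inside the ORFs all 94 nucleosomes were counted. Their spacing was near that of other genes, with a median of 5.82 nucleosomes per kb against 6.09, and PGK1 (4.80) and ADH1 (4.78) were the sparsest.

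The 5 counted upstream nucleosomes carried K18ac above all. In WT H3 the one at PGI1, phosphoglucose isomerase (YBR196C, chromosome II, 612236 to 613900), held 44 K18ac reads, 18 K4me3 reads, 6 K36me3 reads, 5 K79me3 reads and 1 H3 read. At PFK1, the alpha subunit of phosphofructokinase (YGR240C, chromosome VII, 970771 to 973734), the same order of libraries gave 36, 7, 7, 5 and 3 reads, and at PFK2, its beta subunit (YMR205C, chromosome XIII, 671887 to 674766), 38, 13, 8, 4 and 2. Both upstream nucleosomes of ADH1, the major fermentative alcohol dehydrogenase (YOL086C, chromosome XV, 159548 to 160594), held 0 K79me3 and 0 H3 reads, and 22 K18ac reads together. Summed over the 4 genes, the log2 level over H3 (the share of library reads for the mark over that for H3) was 1.96 for K18ac (0.83 to 3.09), 0.79 for K4me3 (-0.40 to 1.97), -1.72 for K36me3 and -1.80 for K79me3. With only 6 H3 reads behind them, these levels are imprecise. With the 34 H3 reads of the 4 strains as reference, K18ac stood at 1.88 (1.34 to 2.42). On that reference its level lay above the all-gene median by 1.04 at PFK2 to 1.52 at PGI1. K4me3 differed from its own all-gene median by -0.42 at PFK1 to 0.88 at PGI1. The PFK2 nucleosome was centred at -14 bp, so it and that of PGI1 spanned the start codon.

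H3 itself was near the level of other genes per mapped nucleosome. In WT H3 with Input, H3 reads per nucleosome relative to the median gene ran from 0.595 at FBA1 (10 reads, 0.285 to 1.09) to 1.47 at HXK2 (37 reads, 1.03 to 2.02), with a median of 0.976. Summed over the 4 first-set strains, which gave 1288 H3 reads, the range narrowed to between 0.737 at FBA1 and 1.16 at CDC19, with a median of 0.97. FBA1 and PDC1 (0.811, 0.663 to 0.983) had intervals below 1. The other 8 had intervals that included 1.

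Over H3, K4me3 was high on the ORFs and K79me3 was low. The log2 level of K4me3 in WT H3 had a median of 0.85 over the 10 genes and 0.13 over the 4609 genes with at least 10 H3 reads. All 10 lay above the all-gene median, as 50.0% of genes do by definition, and 4 were 2-fold or more over H3, against 15.1% of genes. FBA1, fructose-bisphosphate aldolase (YKL060C, chromosome XI, 326408 to 327487), was highest with 159 K4me3 reads, 10 H3 reads and a level of 1.91 (1.01 to 2.81). PGI1 followed with 326 K4me3 and 28 H3 reads, TPI1, triosephosphate isomerase (YDR050C, chromosome IV, 555726 to 556472), stood at 1.39, and PFK2 was just past 2-fold with 344 K4me3 and 42 H3 reads. PDC1, the major pyruvate decarboxylase (YLR044C, chromosome XII, 232390 to 234081), was lowest at 0.28 (-0.35 to 0.91). The intervals of most of the genes overlap, so only the ends of this order are separated by more than counting error. With H3 summed over the 4 strains as reference, HXK2, PGI1, FBA1, TPI1 and PGK1 were 2-fold or more over H3, against 20.9% of genes, and PFK2 was not.

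K18ac and K36me3 varied from gene to gene. The K18ac median was 0.30 against -0.02 for all genes, and FBA1 (1.25) and TPI1 (1.20) passed 2-fold, against 5.62% of genes. CDC19, pyruvate kinase (YAL038W, chromosome I, 71786 to 73288), was lowest at -0.82 (-1.39 to -0.25). K36me3 had a median of 0.32 against 0.02. PFK1 (1.01) and FBA1 (1.02) were 2-fold or more over H3, against 4.86% of genes, PFK2 stood at 0.99, and ADH1 (-0.29), PGK1 (-0.24) and HXK2 (-0.15) were lowest. The calls depended on the H3 reference: with H3 summed over the 4 strains only TPI1 of the 10 genes was 2-fold high in K18ac, against 11.3% of genes, and none was in K36me3, against 0.942%. ADH1, PGK1 and HXK2 then stood at 0.14, 0.14 and 0.34 for K36me3.

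**Figure D1:**
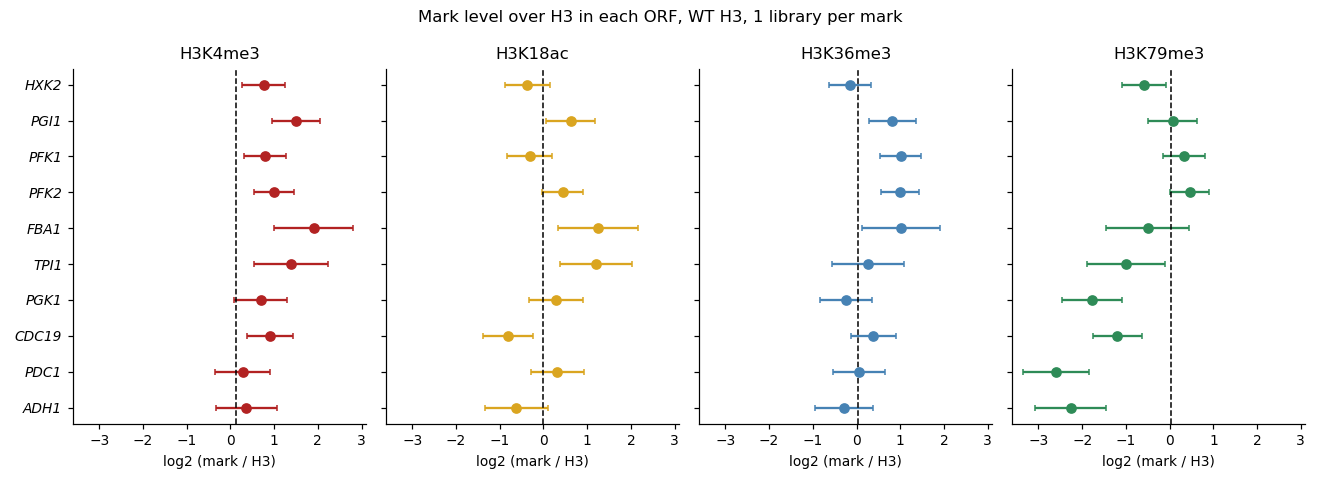
Log2 level of each mark over H3 (x axis) in the ORF of each gene (y axis, in pathway order) in WT H3, 1 library per mark. Points are log2 ratios of shares of library reads, bars are 95% counting intervals, and the dashed line is the median of all genes. All 10 K4me3 points lie right of the line, and the K79me3 points lie furthest left at PDC1 (-2.60) and ADH1 (-2.27).

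Among the 10 genes K79me3 was lowest in later enzymes. Its median level was -0.79 against 0.02 over all genes, and 5 of the 10 genes were 2-fold or more below H3, against 12.2% of all genes. Among the upper enzymes HXK2 had 195 reads and a level of -0.58, above 21.9% of genes, PGI1 a level of 0.07, PFK1 376 reads and 0.33, and PFK2 453 reads and 0.46. From aldolase onward the library held 57 reads at FBA1 (-0.51), 48 at TPI1 (just past 2-fold), 55 at PGK1 (-1.78), 110 at CDC19 (-1.19), 31 at PDC1 (-2.60, -3.36 to -1.83) and 31 at ADH1 (-2.27, -3.08 to -1.45). HXK2 lay below FBA1 and their intervals overlap on this scale, on which 10 to 42 H3 reads set the error.

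Without the shallow H3 reference the 2 parts of the pathway separated fully. Relative density, the reads per nucleosome divided by the mean per nucleosome of the library, was 0.968, 1.04, 0.988 and 1.19 at HXK2, PGI1, PFK1 and PFK2 in the K79me3 library of WT H3. It was 0.425, 0.429, 0.41, 0.492, 0.154 and 0.277 at FBA1, TPI1, PGK1, CDC19, PDC1 and ADH1. The highest of the later 6 genes therefore lay below the lowest of the first 4, a division chosen after its values were seen. The same gap appeared in each substitution strain: the first 4 genes ran from 0.932 to 1.19 and the later 6 from 0.221 to 0.431 in H3K4R, from 0.968 to 1.19 and 0.178 to 0.436 in H3K18R, and from 1.01 to 1.30 and 0.238 to 0.468 in H3K36R. PDC1 was the lowest gene in all 4, at 0.154 to 0.238.

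The same division was also seen with K79me3 as second antibody. After K36me3, the first 4 genes stood at 1.44 to 1.72 and the later 6 at 0.334 to 0.804 in WT H3, at 1.46 to 1.86 and 0.208 to 0.678 in the strain labelled bar1, and at 1.47 to 2.17 and 0.486 to 0.883 in eaf3. Of 25 libraries of at least 100000 reads that were K79me3 with Input or had K79me3 as second antibody, 19 had no overlap between the 2 groups of genes, and 24 had the higher median in the first 4. These libraries share strains and first precipitations and are not replicates of each other. The division was drawn from these data, and the 25 include the WT H3 library that showed it, so the counts are a description and not a test. How often a division chosen in this way among other genes shows no overlap was not computed. Of 57 equally deep libraries without K79me3, 2 had no overlap, and the first 4 genes had the higher median in 37. The groups overlapped in the other 6 of the 25, among them eaf3 and set2 with Input, both of which stood apart. In eaf3 with Input the first 4 genes ran from 0.418 to 1.19 and the later 6 from 0.498 to 1.31. In set2 with Input the first 4 had the lower median, 0.719 against 0.954, with TPI1 at 1.54, PDC1 at 1.00 and PFK1 at 0.716. In set2 with K79me3 as both antibodies, the groups ran from 1.01 to 1.51 and from 0.187 to 0.964.

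**Figure D2:**
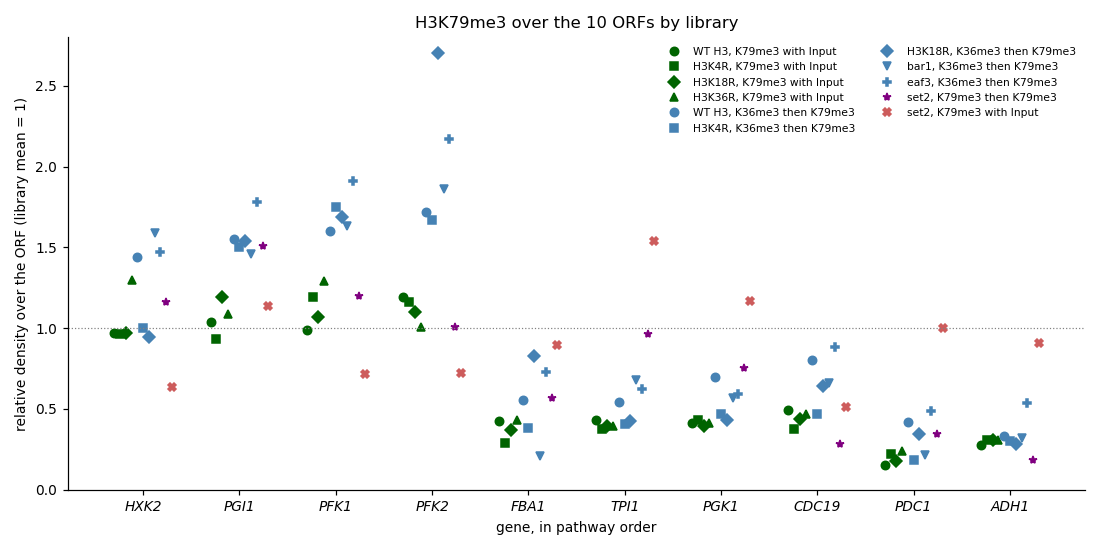
Relative density (y axis, library mean 1) over the ORF of each gene (x axis, in pathway order), 1 point per library, for K79me3 with Input in the 4 first-set strains, K36me3 then K79me3 in 5 strains and 2 set2 libraries. In the libraries shown outside set2 the first 4 genes lie at 0.932 or above and the later 6 at 0.883 or below. In set2 with Input TPI1 is the highest gene (1.54). The libraries were selected, and eaf3 K79me3 with Input, where the groups overlapped, is not shown.

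The low K79me3 of the later enzymes stood out against their K36me3, which lies over the same part of genes. The log2 ratio of K79me3 to K36me3 in WT H3, from a pair of deep libraries, was below the all-gene median of 0.09 at all 10 genes, from -0.42 at HXK2 to -2.65 at PDC1. PDC1 had 31 K79me3 reads beside 340 K36me3 reads, and 0.0346% of genes had a lower ratio. At ADH1 that share was 0.208% and at CDC19 0.38%. The first 4 genes were low in this ratio too, though less so, with shares of 2.99% at PGI1, 3.89% at PFK1, 6.21% at PFK2 and 9.53% at HXK2. In H3K18R PDC1 stood at -2.56 and in H3K4R at -1.87.

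Gene length was not the same in the 2 groups, with coding lengths of 1461 to 2964 bp in the first 4 and 747 to 1692 bp in the later 6. At matched distance the separation began inside the ORF. In the first 250 bp PGI1 (0.402) and PFK2 (0.268) lay among the later genes, and all 10 genes lay at or below the all-gene density of 0.693. Between 500 and 1000 bp the first 4 genes had densities of 0.834 to 1.34 and the later 6 of 0.179 to 0.492, against 1.12 for all genes, and HXK2 alone exceeded that value, as 50.0% of genes did. Between 1000 and 1500 bp HXK2, PGI1, PFK1 and PFK2 stood at 1.18, 1.33, 1.10 and 1.43, whereas PDC1 stood at 0.0894 (6 reads over 3 nucleosomes), PGK1 at 0.447 and CDC19 at 0.715.

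Other enzymes of the pathway were low in K79me3 too. Of 15 further glycolytic and fermentation genes, 10 were 2-fold or more below H3, against 12.2% of all genes, with a median of -1.58. Unlike the 10 listed genes, some of them were 2-fold or more below H3 in K36me3 or K4me3 as well. In K36me3 6 were 2-fold or more below H3 (19.6% of all genes), with a median of -0.82. In K4me3 6 were (15.6%), with a median of -0.16, and 1, ADH3, was 2-fold or more above H3 (15.1% of all genes). K18ac was not low, with a median of 0.08 and 0 of the 15 genes 2-fold or more below H3 (5.81%). K36me3 stood at -2.13 at HXK1, -2.79 at TDH1 and -4.42 at PDC6, but at -0.11 at GPM1 and 0.34 at ENO2. TDH3, the main glyceraldehyde-3-phosphate dehydrogenase, had 13 K79me3 reads and the lowest level, -3.56 (-4.55 at the lower bound). GPM1, phosphoglycerate mutase, stood at -1.99, and the enolases ENO1 and ENO2 at -1.59 and -1.58. The early or late place in the pathway did not divide these genes as it did the 10. HXK1 (-1.32) and GLK1 (-1.19), of the first step, were past 2-fold low. PYK2 (-0.83), ADH2 (-0.335), ADH3 (-0.39), ADH4 (-0.11) and ADH5 (-0.51), of the last steps, were not, whereas PDC5 (-1.79) and PDC6 (-3.42) were. The gluconeogenic genes FBP1 and PCK1, repressed in glucose, were 2-fold or more below H3 as well (-1.02 and -1.86), with K36me3 at a median of -2.19. The 4 regulators RAP1, GCR1, GCR2 and TYE7 ran from 0.58 to 0.93. Several members have close relatives (HXK1 for HXK2, PYK2 for CDC19, PDC5 for PDC1, ADH2 for ADH1), so reads that match more than one of them make these levels uncertain.

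Along the ORFs K4me3 reached unusually far. At each distance from the start codon the density was compared with that of all genes that had a nucleosome there. In WT H3 the first 250 bp did not differ much, with a median of 1.78 for the listed genes and 1.84 for all genes. Between 500 and 1000 bp the median was 2.20 against 1.09, with all 10 genes above the all-gene value (49.7% of genes) and 5 at 2 times that value or more (10.7% of genes). Between 1000 and 1500 bp it was 1.71 against 0.386, and all 7 genes long enough were at 2 times the all-gene value or more, against 20.0% of genes.

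CDC19 shows the form of this plateau. Its 10 nucleosomes had K4me3 densities of 2.14 at 66 bp, 3.00 at 250 bp, 3.09 at 381 bp and 2.40 at 548 bp, then 1.71 to 2.14 as far as 1302 bp and 0.857 at 1449 bp. K36me3 rose along the same nucleosomes from 0.674 to 2.07 at 1145 bp. The longer PFK1 and PFK2 kept densities of 1.80 and 2.34 between 1000 and 1500 bp and fell to 0.223 and 0.377 between 2000 and 3000 bp, where all genes had 0.193. PGI1 had 3.86 between 500 and 1000 bp, above 99.9% of genes, and HXK2 had 3.30, above 98.9%. PDC1 was the exception, with 1.31 between 500 and 1000 bp, above 61.5% of genes, yet with 1.09 between 1000 and 1500 bp it was above 90.2%.

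**Figure D3:**
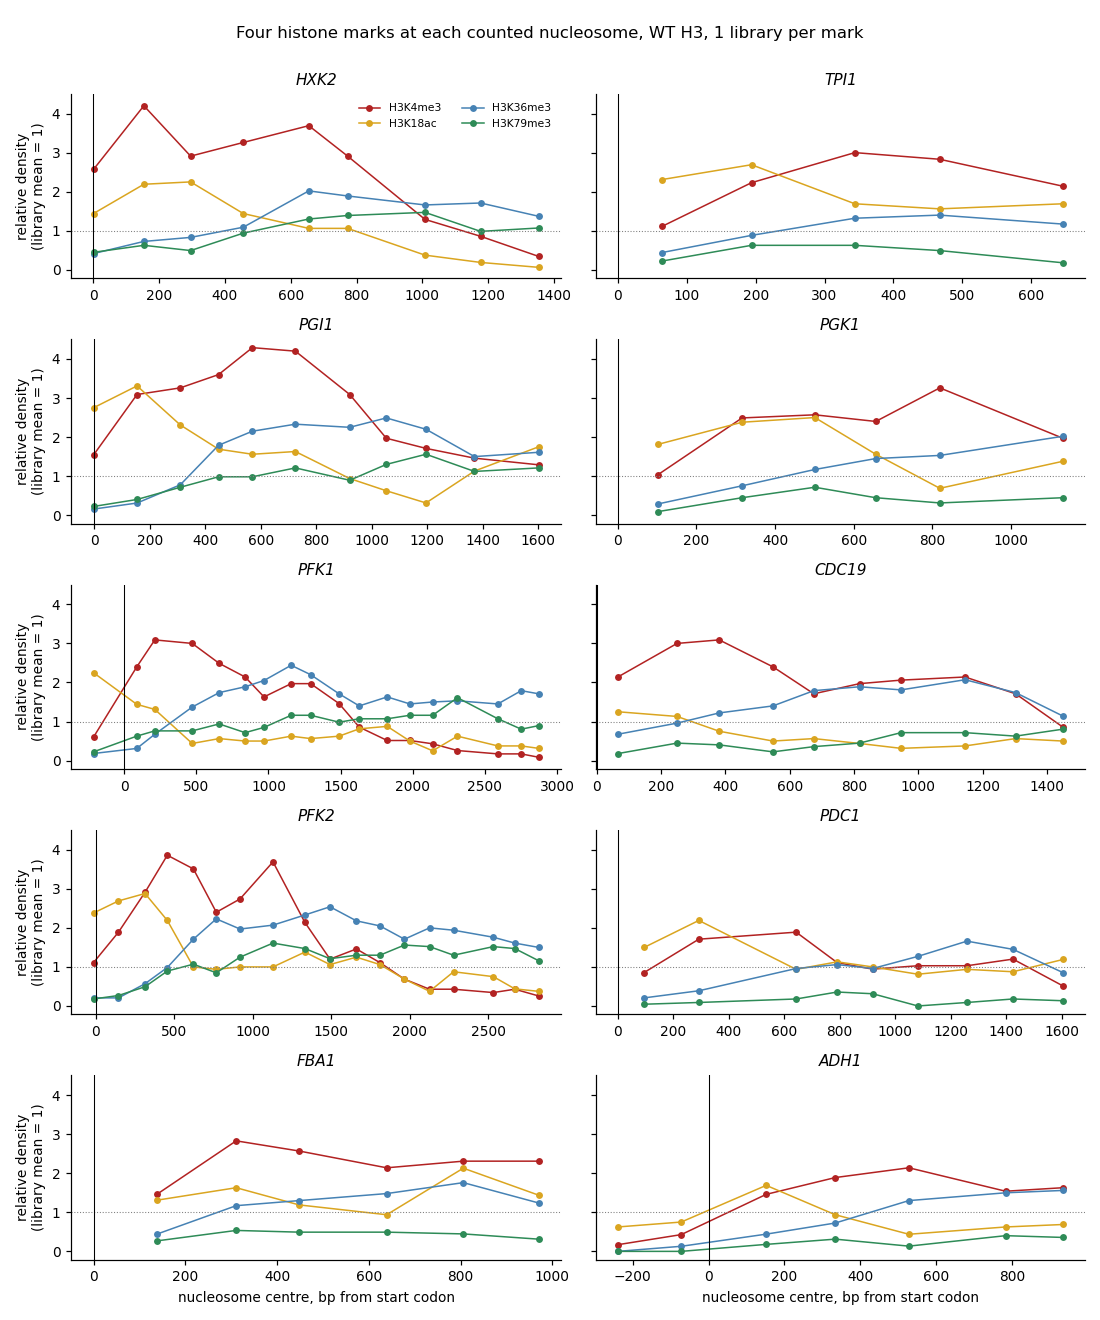
Relative density (y axis, library mean 1, dotted line) of 4 marks at each counted nucleosome against the distance of its centre from the start codon (x axis, bp) in WT H3, 1 library per mark. K4me3 stays above 1 through most of each short ORF, K18ac is highest near the start in most genes, K36me3 rises inward, and K79me3 stays below 1 in FBA1, TPI1, PGK1, CDC19, PDC1 and ADH1.

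The ratio of the first 500 bp to the rest of the ORF was lower for K4me3 in WT H3. There the log2 ratio per nucleosome was 0.30 against 1.24 for all genes, and 9 of 10 genes were below the all-gene median. Since the rest is longer in longer genes, the ratio was also taken with the rest ending at 1000 bp, an alternative added after the data were seen, which gave -0.01 against 0.80 with all 10 genes below. The contrast was present in H3K18R (0.02 against 1.02) and H3K36R (0.07 against 0.99), with 9 genes below in each. It was smaller in the strain labelled bar1, 0.70 against 0.94 with 6 below, and the medians lay close together in set2 (0.36 against 0.33, with 5 below) and in eaf3 (0.37 against 0.33, with 4 below). In WT H3 K18ac was more front-loaded than in other genes, with 1.05 against 0.56, and H3 stood at 0.24 against -0.11. For K36me3 the ratios were -1.16 and -1.14, and for K79me3 -0.71 and -0.30.

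**Figure D4:**
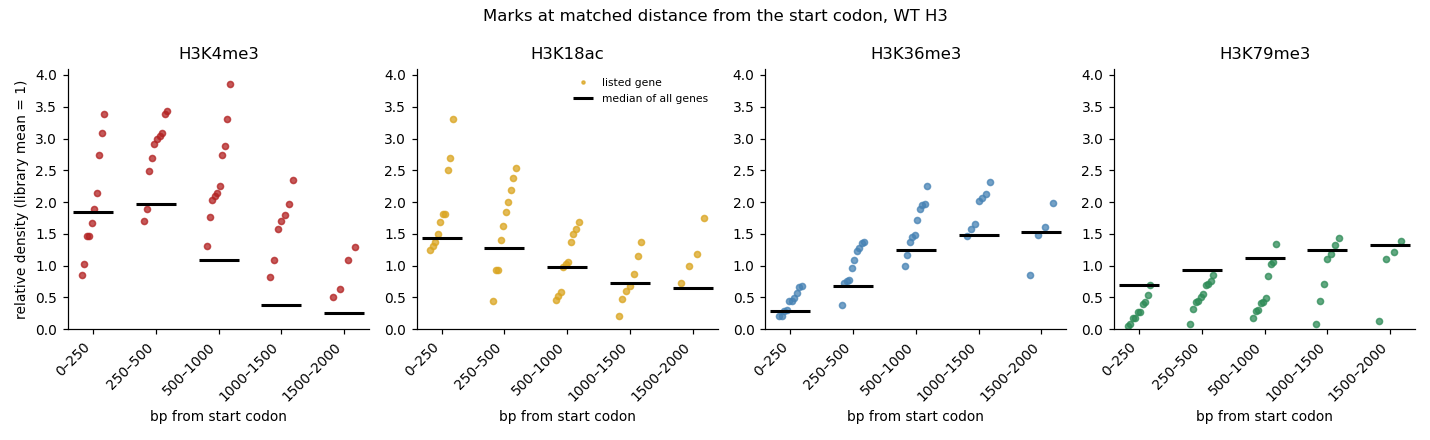
Relative density (y axis, library mean 1) in windows of distance from the start codon (x axis, bp) in WT H3, 1 point per listed gene and a bar for the median of all genes. K4me3 points lie around the bar in the first window (1.78 against 1.84) and above it from 500 bp on, whereas most K79me3 points lie below it.

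The reach of K4me3 differed among the strains. Between 1000 and 1500 bp the median density was 1.36 in H3K18R against 0.495 for all genes, and 1.69 in H3K36R against 0.542, with all 7 genes above in both. In the strain labelled bar1 it was 1.11 against 0.611, with 5 of 7 above and 2 at 2 times the all-gene value or more (10.4% of genes). PGI1 (1.78) and PFK2 (1.37) were highest there, and CDC19 (0.555) and PDC1 (0.444) were below the all-gene value. In eaf3 the median was 1.11 against 0.887, and in set2 it was 0.768 against 0.922, with 1 of 7 above. Set beside the strain labelled bar1, all genes thus stood higher in both deletion strains, while the listed genes had an equal median in eaf3 and a lower one in set2.

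Measured as change against the strain labelled bar1 over the rest of the ORF, K4me3 in set2 had a log2 median of -0.34 over the 10 genes and 0.22 over all genes. It was negative at 7 genes, from -0.27 at PFK1 to -0.92 at ADH1, and positive at PDC1 (0.73), HXK2 (0.52) and CDC19 (0.14). In eaf3 the median was -0.21 against 0.18, but it was 0.12 when taken over all combinations with the mark, so its sign depends on the libraries used. Both comparisons share the reference library of the strain labelled bar1, which stood at -0.39 against WT H3 over the 10 genes and 0.15 over all genes. Against WT H3, K4me3 changed by a median of 0.15 in H3K36R, with 0.10 over all genes, but by -0.050 when taken over all combinations with the mark.

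K18ac on the ORFs was lower relative to other genes in the second set than in the first. Between 500 and 1000 bp the median density was 1.04 in WT H3 against 0.98 for all genes, with 6 of 10 above (49.3% of genes), and 1.18 against 1.03 in H3K36R. The strain labelled bar1 had 0.631 against 0.924, set2 0.696 against 0.974 and eaf3 0.514 against 0.929, and in eaf3 none of the 10 genes was above the all-gene value. Change in K18ac against the strain labelled bar1 over the rest of the ORF had a median of 0.00 in set2, against 0.18 over all genes, and of -0.28 in eaf3, against 0.11. The set and the strain background cannot be told apart.

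K36me3 started closer to the start codon in the second set. In the first 250 bp its density in WT H3 was 0.441 against 0.285 for all genes. In the strain labelled bar1 it was 1.35 against 0.374 with all 10 genes above (45.1% of genes), and in eaf3 it was 1.20 against 0.416, again with all 10 above. TPI1 had 1.68 in the strain labelled bar1, above 98.4% of genes, and FBA1 and PGI1 had the lowest value, 0.934, above 86.2%. These are 5 to 18 reads per gene in a library of 348217 reads. Between 500 and 1000 bp the median in WT H3 was 1.61 against 1.24, with 8 of 10 genes above (49.6% of genes).

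In H3K36R, where lysine 36 is replaced, the K36me3 antibody recovered 434317 reads, and their distribution over genes followed K4me3 of WT H3 (rank correlation 0.85 over 4941 genes) more than K36me3 of WT H3 (0.40). At the listed genes these reads kept a larger share than elsewhere. Against WT H3 over the rest of the ORF the log2 median was 0.56, from -0.37 at PDC1 to 0.98 at TPI1, whereas the all-gene median was -0.56, and all 10 genes lay above it. Taken over all combinations with the mark, the median of the 10 genes was -0.50. Between 500 and 1000 bp the density in that library was 2.77 against 1.05. Values are shares within a library and do not measure how much K36me3 signal remained.

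Nucleosomes recovered by both the K4me3 and the K36me3 antibody were enriched on these genes. The pair level is the log2 ratio of the share of reads after the second antibody to that in the Input of the same first antibody. For K4me3 then K36me3 in WT H3 it had a median of 0.68 over the 10 genes and -0.16 over all genes. All 10 were above the all-gene median (49.9% of genes), from 0.47 at TPI1 (17 reads) to 1.66 at CDC19 (74 reads, above 99.6% of genes). CDC19 and PFK2 (1.04) were 2 genes at 2-fold or more, against 6.59% of all genes. The reverse order, K36me3 then K4me3, had a median of 1.09 against 0.34, again with all 10 above (50.0% of genes) and 6 at 2-fold or more (26.2% of genes), from 0.35 at PDC1 to 1.62 at TPI1.

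The same pair was enriched in the other strains that carry both marks. K4me3 then K36me3 stood at 0.66 against -0.10 in the strain labelled bar1, with 1502 reads over the 10 genes and all 10 above. In eaf3, the deepest with 3841 reads, it stood at 0.81 against -0.13, from 0.34 at TPI1 to 1.06 at PFK2, and all 10 were above. In H3K18R it stood at 0.77 against -0.15 with 8 above, TPI1 (4 reads) and PGK1 (6 reads) being the others. The reverse order gave 0.71 against 0.23 in the strain labelled bar1, 0.66 against 0.19 in eaf3 and 1.04 against 0.30 in H3K18R.

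Where K36me3 could not form, the pair levels were mixed, and they do not show whether the pair was lost. In H3K36R, K4me3 then K36me3 gave 31 reads over the 10 genes and a median of -0.02 against 0.22, with 4 above. The reverse order gave 1374 reads and 0.05 against -0.02, from -0.43 at PGK1 to 0.37 at PFK1. In set2, K36me3 then K4me3 gave 145 reads and -0.11 against 0.01, over an Input of 0 reads at PGK1 to 13 at PGI1. In the same strain K4me3 then K36me3 gave 277 reads and 0.37 against 0.00, with 7 above. PFK2 (0.97) and PFK1 (0.69) were highest in that last library, and TPI1 (-1.36) was lowest. In H3K36R the reads of the K36me3 antibody with Input followed K4me3 of WT H3 over genes (rank correlation 0.85), so the reference of the reverse order already resembled K4me3. How far recovery of K4me3 nucleosomes by that antibody without K36me3 enters the pair levels of the other strains was not tested.

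**Figure D5:**
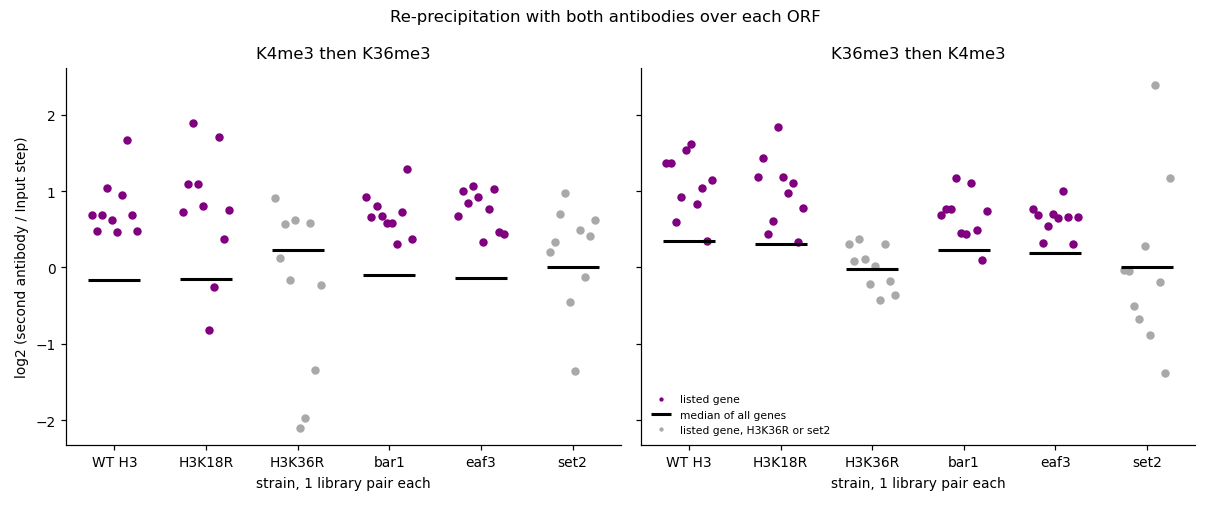
Log2 ratio of the share of reads after the second antibody to that in the Input step (y axis) in 6 strains (x axis), 1 point per listed gene and a bar for the median of all genes. In WT H3, the strain labelled bar1 and eaf3 all points for K4me3 then K36me3 lie above the bar. In H3K36R 4 of 10 do, from a pair library of 10548 reads.

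Pairs with K18ac as the first antibody and K36me3 or K4me3 as the second were also above other genes. K18ac then K36me3 had a median of 0.74 against 0.02 in WT H3, with 8 of 10 above, and 0.79 against 0.00 in the strain labelled bar1, with all 10 above. K18ac then K4me3 stood at 0.66 against 0.05 and 0.65 against 0.14 in the same strains. K36me3 then K79me3 was low, -0.82 against -0.04 in WT H3 and -1.16 against -0.05 in the strain labelled bar1. With K79me3 as the first antibody, K79me3 then K4me3 stood at 0.79 against 0.24 and K79me3 then K36me3 at 0.38 against -0.25 in WT H3, each with 9 of 10 genes above. The choice of reference mattered here. Over H3 then the second mark, K79me3 then K4me3 became -0.45, K36me3 then K79me3 became 0.60 against -0.08, and K79me3 then K36me3 became -0.84 against -0.04, the last 2 on references of 59 and 39 reads over the 10 genes. On this scale K18ac then K36me3 stood at 0.77 against -0.19 and K18ac then K4me3 at 0.28 against -0.09. With K18ac second, K4me3 then K18ac stood at -0.62 against 0.89 and K36me3 then K18ac at -0.12 against 0.60. Each of these 2 had 3 of 10 genes above, on a reference of 13 reads.

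The gene with marks most like the median of the 10 genes over 5 values (the 4 marks over H3, and H3, in WT H3) was YLR257W, at a Euclidean distance of 0.39 on the log2 scale among 4579 genes ranked. BIO2 (0.44), HEM12 (0.46), RPL19B (0.48) and BUB3 (0.50) followed. The 10 genes themselves lay farther from their own median, from 1.03 at HXK2 to 1.97 at ADH1, so they did not form a tight group on these values.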

How the data were processed

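The values the authors deposited were raw counts of reads for every atlas nucleosome in every library. Alignment was done with Bowtie2 (version not given in the sources used here) to sacCer3, per the submitters' processing notes. The treatment of duplicates, barcodes and multiply matching reads is not given in the sources used here. Kept duplicates would make counting intervals too narrow. Input was taken to be material of the first antibody that did not meet a second one, a reading the labels leave unstated.

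RefSeq's R64 gene table, of the same build, supplied symbols and coordinates. Nucleosomes (151 bp) were placed by their centre relative to the start codon: 500 bp upstream, first 500 bp, rest of the ORF. Levels were log2 ratios of counts per library total with 0.5 reads added. All-gene medians used genes with at least 10 H3 reads or, for other ratios, 10 reads over both libraries. Relative densities needed no pseudocount. The 180 libraries formed 180 groups of 1, so no test was run, and a gene is called past 2-fold. The W or C in systematic names gave the strand. The analysis used Python 3.11.15 with pandas 2.3.3, numpy 2.4.6 and matplotlib 3.10.9, and was tested on simulated counts. Named genes were the 10 listed genes, 15 other genes of the pathway, 2 gluconeogenic genes, 4 regulators and the 5 most like genes. The genes and lists were chosen with earlier results of these data known. Alternatives changed the reference, pseudocount, read minimum, fold, zone borders, size factors and shallow libraries. A planned search for promoter motifs was not run, since no sequences were used here.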

Additional observations from a re-analysis of the deposited data

Results flagged for a closer look

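One pair of strains moved in opposite directions under the same contrast. Summed over the 10 genes, reads of the K36me3 antibody over the rest of the ORF changed against WT H3 by 0.33 (log2, 0.22 to 0.43) in H3K36R, which lacks lysine 36, and by -0.18 (-0.24 to -0.12) in H3K4R. The all-gene median of the same change was -0.56 in H3K36R and 0.02 in H3K4R. Over genes the H3K36R library correlated with K4me3 of WT H3 at a rank correlation of 0.85 and with K36me3 of WT H3 at 0.40, and the part of this in the difference was not tested. The 2 strains share the WT H3 library, each is 1 library, and the difference was not tested. The H3K36R library held 434317 reads and that of H3K4R 2693698.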

How the results depend on the processing

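No paired analysis was possible because each combination of strain and antibodies was 1 library. Under the other settings, 2 of them added after the data were seen, 46 values that answer a comparison moved by less than their counting interval (counts of genes by less than 1.5 times) and 27 moved by more. No value past 2-fold changed sign, but the medians that changed sign included the pair levels K36me3 then K79me3 (-0.82 to 0.60), K79me3 then K36me3 (0.38 to -0.84) and K79me3 then K4me3 (0.79 to -0.45), and the change of the K36me3 antibody's reads in H3K36R (0.56 to -0.50).

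With 1.5-fold as threshold, 8 genes were high in K4me3 (31.1% of all genes) and 4 in K36me3 (19.6%). With H3 of 4 strains as reference, 1 gene was 2-fold high in K18ac (11.3% of all genes) and 0 in K36me3 (0.942%). A border at 300 bp gave first-to-rest ratios of 0.17 for K4me3, 1.29 for K18ac, -1.70 for K36me3 and -0.96 for K79me3. With the rest ending at 1000 bp they were -0.012, 0.84, -1.28 and -0.44. K79me3 over K36me3 instead of H3 had a median of -1.40. Under size factors from the median gene, the change of K18ac was 0.11 in H3K36R and -0.19 in set2, and that of K4me3 was -0.55 in set2 and -0.39 in eaf3. Over all combinations with the mark, K4me3 was -0.050 in H3K36R and 0.12 in eaf3, and K18ac was -0.068 in H3K36R. Restricting these to libraries of 10000 reads or more gave -0.050, 0.12 and -0.068, and -0.026 for K18ac in eaf3. With H3 then the second mark as reference, pair levels were 1.41 for K4me3 then K36me3, 0.61 for K36me3 then K4me3 and 0.60 for K36me3 then K79me3. The cause of these shifts was not tested.

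Depth limits the levels over H3 to 10 to 42 H3 reads per gene, and the mean H3 library of WT H3 to 2.88 reads per nucleosome. Every value rests on 1 library.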
